A study of Mus musculus with 6 samples.

Results

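The microRNAs described here are both arms of the vascular microRNA miR-126 (miR-126-3p and miR-126-5p) and the clustered pair miR-221 and miR-222. They were found by assay name and are 4 of 517 microRNA assays read in 6 mouse aortas. The 3 Dicer_KO aortas came from LysM-Cre mice with both Dicer copies floxed, and the 3 Dicer_WT aortas from LysM-Cre littermates with wild-type Dicer. All 6 animals were male and lacked Apoe, which gives atherosclerosis on a fat-rich diet, and all ate a diet with 21% crude fat for 12 weeks, begun at 6 to 8 weeks of age. Dicer is the endonuclease that cuts microRNA hairpins into duplexes. LysM-Cre acts in macrophages, monocytes and neutrophils, whereas endothelial and smooth muscle cells of the vessel wall are outside its usual range and no assay here measured Dicer. Each aorta was counted as 1 mouse, because the replicates are labelled biological. The comparison asked how the levels of these microRNAs in the whole aorta differed with Dicer in LysM-expressing cells.

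The miR-126 hairpin lies in an intron of Egfl7, a gene of endothelial cells, and miR-126 is among the most abundant microRNAs of the endothelium. After Dicer has cut the hairpin, either arm can be loaded into an Argonaute protein. The 3p arm is known to repress Spred1, an inhibitor of growth factor signalling, and the 5p arm is known in mouse arteries to repress Dlk1, an inhibitor of endothelial proliferation. miR-221 and miR-222 are made from 1 primary transcript, repress the cell cycle inhibitor Cdkn1b and the receptor Kit, and are known to favour proliferation of smooth muscle cells and to restrain that of endothelial cells.

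RefSeq (GRCm38.p6) gave a mature sequence for 3 of the 4 assays, and mmu-miR-126a-5p is named only. The assay names miR-221 and miR-222 carry no arm and were taken as the 3p arms, the main arms of these hairpins. The mature sequences show which microRNAs share a seed, the stretch that pairs with targets (bases 2 to 8, in capitals, 5′ to 3′).
mmu-miR-126a-3p: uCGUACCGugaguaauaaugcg
mmu-miR-221-3p: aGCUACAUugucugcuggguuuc
mmu-miR-222-3p: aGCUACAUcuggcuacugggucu
miR-221-3p and miR-222-3p had the same seed, GCUACAU, and their first 8 bases were identical. Beyond these, 3 of 15 bases matched when both were laid side by side without gaps, so 11 of 23 matched in all. Among 1738 mature mouse microRNAs in the table, 3 held this seed, these 2 and miR-1928, which no assay here was named for. The seed of miR-126-3p, CGUACCG, was held by no other.

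The hairpins show where each mature 3p arm lies in its precursor (capitals, 5′ to 3′).
Mir126a: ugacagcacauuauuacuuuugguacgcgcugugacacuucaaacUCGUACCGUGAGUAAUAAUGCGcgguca
Mir221: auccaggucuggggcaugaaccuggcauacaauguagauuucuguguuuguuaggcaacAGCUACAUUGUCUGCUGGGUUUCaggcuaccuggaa
Mir222: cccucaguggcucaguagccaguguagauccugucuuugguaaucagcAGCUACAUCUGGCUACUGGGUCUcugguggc
Mir126a was at chr2:26591357-26591429 on the plus strand, inside Egfl7. On the minus strand RefSeq lists Mir126b, whose 58-base hairpin is the exact reverse complement of a stretch of Mir126a. The names of the assays carry no a or b, and the table lists mir-126 as a synonym of Mir126a. Mir221 was at chrX:19146294-19146388 and Mir222 at chrX:19146893-19146971, both on the minus strand, with 504 bases between the hairpins and no annotated gene spanning either.

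Each aorta was read once per assay by TaqMan PCR after preamplification, with the result given as Ct, the cycle at which the signal crosses a threshold, and a Ct lower by 1 stands for about 2 times the RNA. Assays below Ct 35, taken as detected, numbered 349 to 366 in Dicer_KO aortas and 374 to 378 in Dicer_WT aortas, and the 4 microRNAs were far below that limit in all 6. Smooth muscle markers fitted the labelled tissue, with Ct 11.9 to 12.7 for miR-145 in Dicer_KO aortas and 11.5 to 12.0 in Dicer_WT aortas. The labels also name macrophage as the cell type, and the myeloid miR-223 was detected in every aorta. Over all 377 assays tested, the median log2 fold change on the authors' scale was -0.42 (Dicer_KO minus Dicer_WT), and it ranged from -0.64 to 0.16 with the way the values were scaled. In whole tissue, fewer cells of a type and less RNA per cell cannot be told apart.

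By Ct, miR-126-3p was among the most abundant readings. It had Ct 16.5, 15.9 and 16.2 in the Dicer_KO aortas, which ranked it 3rd to 9th lowest of 517 assays, and 15.9, 16.0 and 16.0 in the Dicer_WT aortas, where it ranked 8th to 9th. miR-126-5p had Ct 19.3, 18.9 and 19.0 in the Dicer_KO aortas, at ranks 24 to 37, against 19.4, 19.1 and 19.3 in the Dicer_WT aortas, at ranks 38 to 44. The ranks of miR-126-5p, which use no control RNA, did not overlap between the groups, being nearer the top in Dicer_KO aortas, as were those of 57 of the 377 assays tested (15.1%).

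miR-222 had Ct 19.6, 19.9 and 20.3 in the Dicer_KO aortas (ranks 40 to 41) and 18.9, 19.0 and 19.5 in the Dicer_WT aortas (ranks 34 to 40). miR-221 had the highest Ct of the 4, at 23.0, 23.9 and 23.8 in the Dicer_KO aortas (ranks 116 to 123) and 21.9, 22.4 and 22.8 in the Dicer_WT aortas (ranks 98 to 107). Its ranks did not overlap either and lay further down in Dicer_KO aortas, as did those of 54 of 377 assays (14.3%). Primer and probe efficiencies differ between assays, so the order of Ct between microRNAs is a description of readings and not a ratio of molecules.

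In Dicer_KO aortas miR-126-3p was close to its Dicer_WT level, miR-126-5p averaged higher, and miR-221 and miR-222 averaged lower. None of the 4 passed the test over all assays, where 7 of 377 assays were called lower (1.86% of those tested) and 0 higher (limma, adjusted p under 0.05, with 92 lower and 9 higher, 2.39% of assays, at an unadjusted p under 0.05). The following levels are relative quantities on the authors' scale, with the geometric mean of the Dicer_WT aortas at 1.

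**Figure D1:**
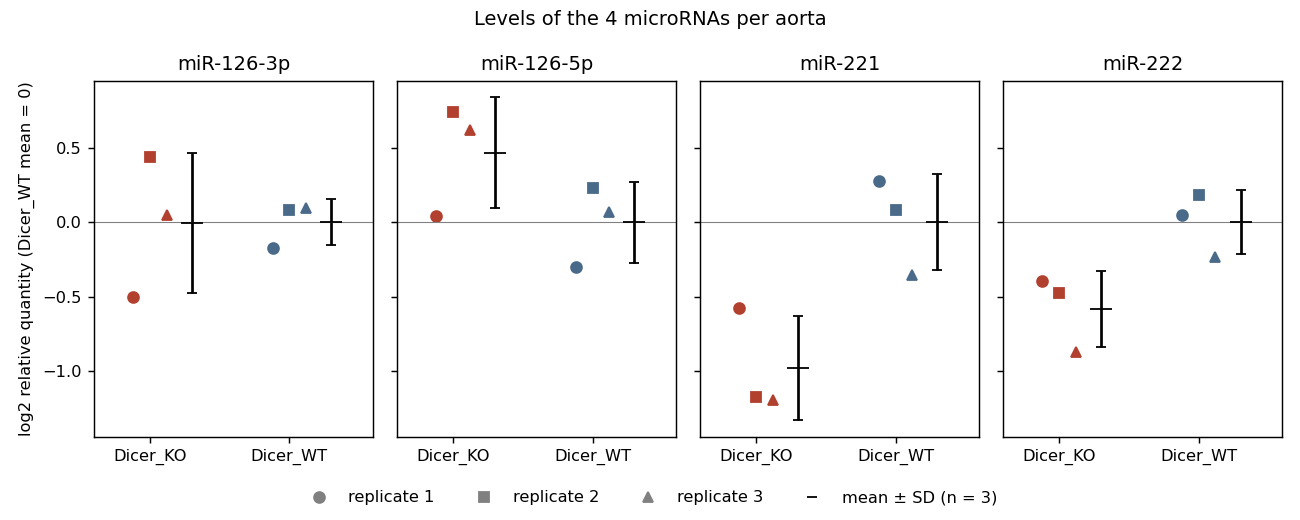
Log2 relative quantity (vertical axis, Dicer_WT mean at 0) of each microRNA in each aorta, Dicer_KO left of Dicer_WT, with the mean ± SD beside the points (n = 3 each). The Dicer_KO aortas lie below every Dicer_WT aorta for miR-221 and miR-222, and the groups overlap for both arms of miR-126.

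miR-126-3p had relative quantities of 0.707, 1.36 and 1.03 in the Dicer_KO aortas and 0.885, 1.06 and 1.07 in the Dicer_WT aortas. The lowest and the highest of the 6 aortas were both Dicer_KO, so the Dicer_KO range enclosed the Dicer_WT range. The means were 1.03 ± 0.325 in Dicer_KO and 1.00 ± 0.103 in Dicer_WT aortas (SD, n = 3 each), and the log2 fold change was -0.01 ± 0.28 (SE, 95% interval -0.69 to 0.68, limma adjusted p = 0.991). The interval leaves room for a change of either sign, and the sign itself turned with the scaling, being above 0 with mean centring, after quantile normalization, relative to U87 and Y1 and relative to the snoRNAs without U6. On all 7 scales tried the value lay above the median of all assays, by 0.35 to 0.56 on the log2 scale. Apart from quantile normalization, these scales shift all assays of an array card in an aorta by the same amount, so this distance could move little.

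For miR-126-5p the relative quantities were 1.03, 1.67 and 1.53 in the Dicer_KO aortas and 0.814, 1.17 and 1.05 in the Dicer_WT aortas. Dicer_KO replicates 2 and 3 lay above every Dicer_WT aorta, whereas replicate 1 lay within the Dicer_WT range, and the groups parted upwards for 9 of 377 assays (2.39%). The means were 1.41 ± 0.337 in Dicer_KO and 1.01 ± 0.183 in Dicer_WT aortas (SD, n = 3 each), with a log2 fold change of 0.47 ± 0.27 (SE, 95% interval -0.19 to 1.12, limma adjusted p = 0.264). This was the 43rd highest of 377 log2 fold changes. It was above 0 on all 7 scales, from 0.24 without normalization to 0.98 relative to U87 and Y1, and did not pass the threshold on any of them.

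miR-221 had relative quantities of 0.672, 0.444 and 0.438 in the Dicer_KO aortas, against 1.21, 1.06 and 0.781 in the Dicer_WT aortas. All 3 Dicer_KO aortas lay below every Dicer_WT aorta, as they did for 123 of 377 assays (32.6%). It averaged 0.518 ± 0.133 in Dicer_KO and 1.02 ± 0.218 in Dicer_WT aortas (SD, n = 3 each), for a log2 fold change of -0.98 ± 0.27 (SE, 95% interval -1.65 to -0.31), with an unadjusted p = 0.0119 and a limma adjusted p = 0.101. At an unadjusted p under 0.05, 24.4% of all assays were lower. Without Dicer_KO replicate 1, the highest of the Dicer_KO aortas, miR-221 passed the threshold (-1.18, limma adjusted p = 0.0437), in a fit that called 55 assays lower against 7 with all aortas. The size of the value depended on the scale, at -0.47 relative to U87 and Y1, -0.61 with mean centring and -0.65 after quantile normalization, against -1.20 without normalization. Relative to U87 and Y1 the groups overlapped. miR-221 did not pass the threshold on any of the 7 scales, and its limma adjusted p ranged from 0.0437 to 0.289 over 20 alternatives.

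miR-222 had relative quantities of 0.761, 0.718 and 0.546 in the Dicer_KO aortas and 1.04, 1.14 and 0.850 in the Dicer_WT aortas. Here too every Dicer_KO aorta lay below every Dicer_WT aorta, as for 123 of 377 assays (32.6%). The means were 0.675 ± 0.114 in Dicer_KO and 1.01 ± 0.145 in Dicer_WT aortas (SD, n = 3 each), with a log2 fold change of -0.58 ± 0.22 (SE, 95% interval -1.12 to -0.04), an unadjusted p = 0.0382 and a limma adjusted p = 0.160. Relative to U87 and Y1 it was -0.07, close to 0, although still below the median of all assays. On that scale the groups overlapped.

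In the authors' deposited table the fold changes, Dicer_KO over Dicer_WT, were 1.03 for miR-126-3p, 1.39 for miR-126-5p, 0.510 for miR-221 and 0.670 for miR-222. These equal the ratios of the arithmetic means of the relative quantities.

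**Figure D2:**
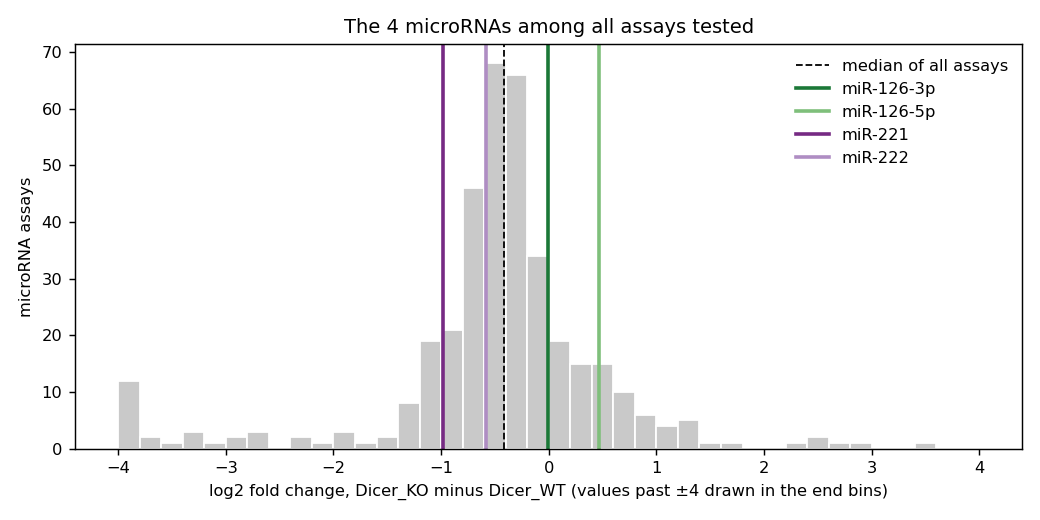
Histogram of the log2 fold changes (horizontal axis, Dicer_KO minus Dicer_WT) of all 377 assays tested, with the 4 microRNAs and the median of all assays as vertical lines. miR-126-5p at 0.47 and miR-126-3p at -0.01 lie above the median of -0.42, and miR-222 at -0.58 and miR-221 at -0.98 below it.

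Of all assays tested, 295 of 377 (78.2%) had a log2 fold change below 0, as did 3 of the 4 microRNAs. Against the median of all assays, the arms of miR-126 and the clustered pair fell on opposite sides. miR-126-5p stood 0.88 above it and miR-126-3p 0.41 above it on the log2 scale, whereas miR-222 was at -0.17 and miR-221 at -0.56 relative to it. The side held on all 7 scales for each of the 4, but apart from quantile normalization these scales could hardly change it. They shift all assays of an array card in an aorta by the same amount. For miR-221 the distance ranged from -0.64 to -0.49 and for miR-222 from -0.23 to -0.09, so miR-222 stayed near the centre of the distribution. miR-221 was the 63rd lowest log2 fold change of 377 and miR-222 the 135th.

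**Figure D3:**
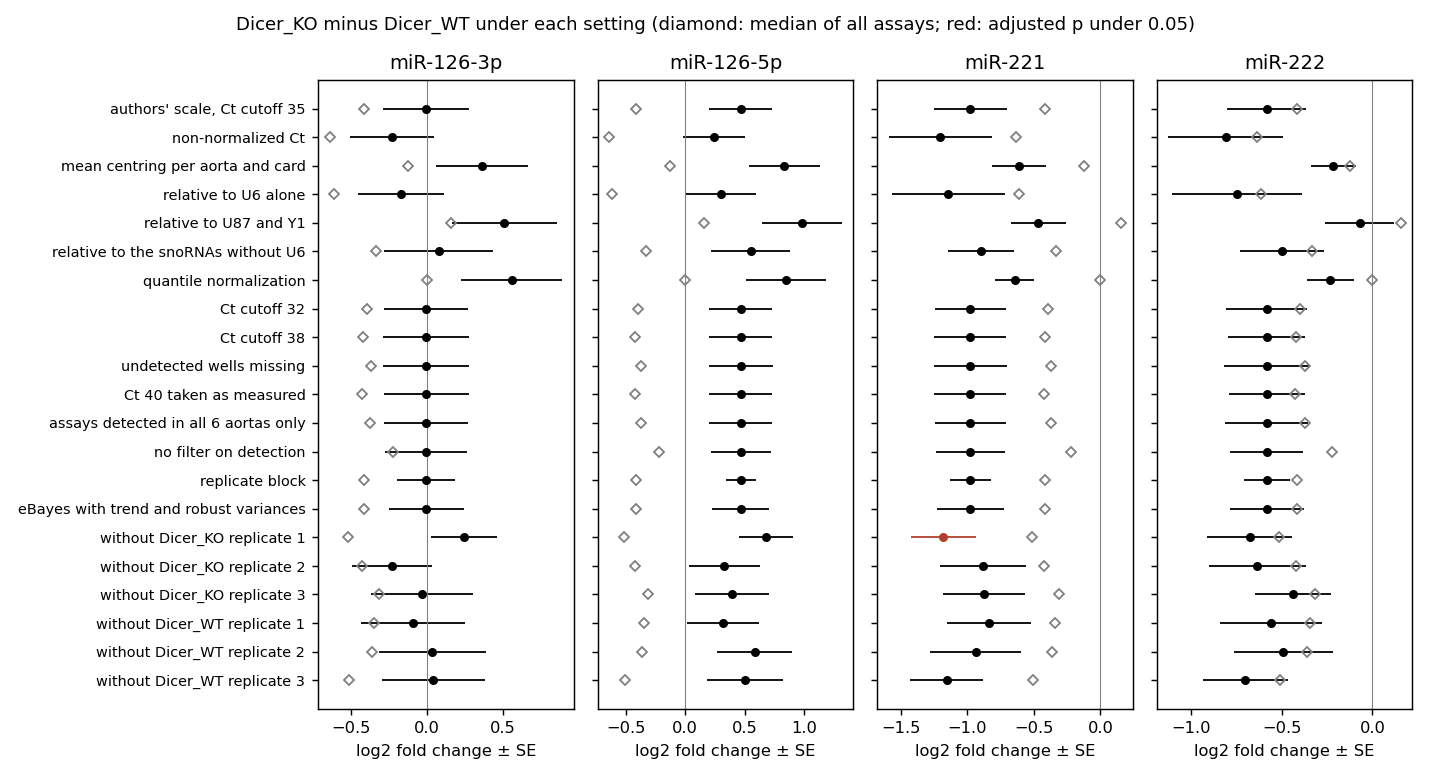
Log2 fold change ± SE (horizontal axis, Dicer_KO minus Dicer_WT) of each microRNA under each way of scaling, filtering or leaving out 1 aorta (rows), with the median of all assays as a diamond and adjusted p under 0.05 in red. miR-126-5p stays above 0 and miR-221 and miR-222 below 0 in every row, miR-126-3p crosses 0, and miR-221 passes the threshold in 1 row, without Dicer_KO replicate 1.

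The differences within each aorta remove the choice of control RNA, since all 4 assays were on the same array card. miR-126-3p exceeded miR-126-5p by 2.78, 3.03 and 2.76 cycles in the Dicer_KO aortas and by 3.45, 3.18 and 3.36 cycles in the Dicer_WT aortas. The distance between the arms was smaller in all 3 Dicer_KO aortas than in any Dicer_WT aorta (no overlap in 13.6% of 22 hairpins). It averaged 2.86 ± 0.149 cycles in Dicer_KO and 3.33 ± 0.139 cycles in Dicer_WT aortas (SD, n = 3 each), a difference of -0.47 (p = 0.1 in a two-sided exact permutation test, which cannot go lower with 3 aortas a group, adjusted p = 0.15 over 3 such comparisons). Leaving out single aortas gave -0.56 to -0.41. After quantile normalization it was -0.29 (exact permutation p = 0.3).

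miR-221 lay below miR-222 in every aorta, with differences of -3.40, -3.91 and -3.54 cycles in the Dicer_KO aortas and -2.99, -3.32 and -3.34 cycles in the Dicer_WT aortas. Again the groups did not overlap, as for 14 of 41 pairs of adjacent microRNA genes (34.1%). The gap between the clustered pair was wider in these Dicer_KO aortas. On average it was -3.61 ± 0.266 cycles in Dicer_KO and -3.22 ± 0.196 cycles in Dicer_WT aortas (SD, n = 3 each), a difference of -0.40 (exact permutation p = 0.1, adjusted p = 0.15). The nearest aortas of the groups, Dicer_KO replicate 1 at -3.40 and Dicer_WT replicate 3 at -3.34, were close to each other, and without Dicer_KO replicate 2 the difference was -0.25.

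The mean of miR-221 and miR-222 minus the mean of the miR-126 arms was -3.37, -4.53 and -4.48 cycles in the Dicer_KO aortas and -2.71, -3.14 and -3.49 cycles in the Dicer_WT aortas. Dicer_KO replicate 1 lay within the Dicer_WT range and the other Dicer_KO aortas below it. The difference between the groups was -1.01 (exact permutation p = 0.2, adjusted p = 0.2), reaching -1.39 when Dicer_KO replicate 1 was left out and -0.81 when replicate 2 was.

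**Figure D4:**
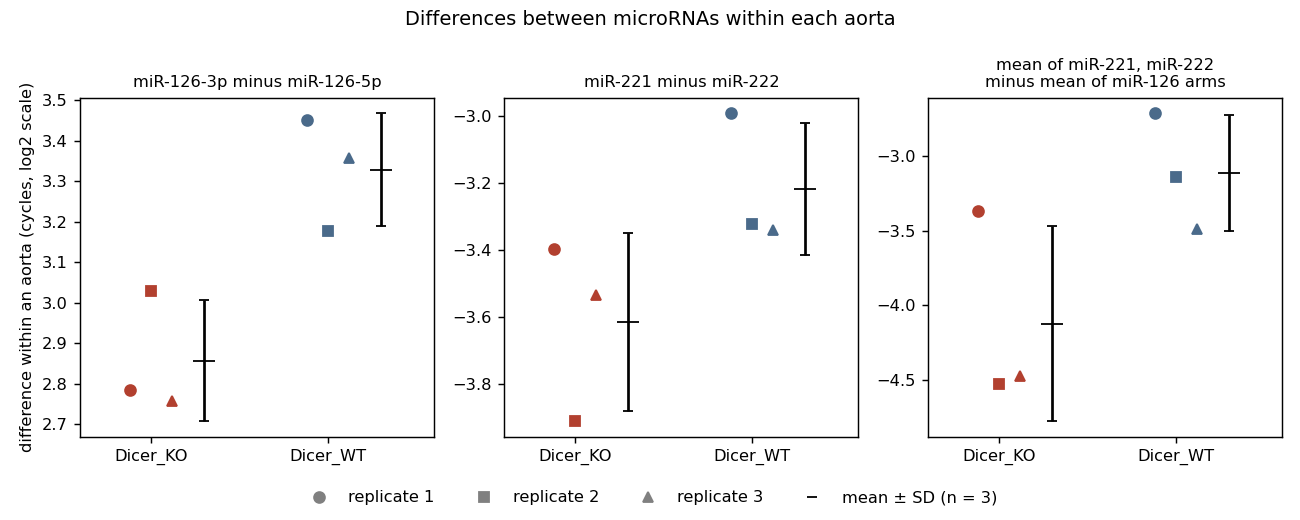
Differences between microRNAs within each aorta (vertical axis, cycles on the log2 scale, each panel with its own range), Dicer_KO left of Dicer_WT, with the mean ± SD beside the points (n = 3 each). The groups do not overlap for miR-126-3p minus miR-126-5p or for miR-221 minus miR-222, and they overlap in the third panel.

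Other pairs on the same cards were read in the same way. Among 22 hairpins with both arms on 1 card and detected in all 6 aortas, the difference between arms did not overlap between the groups in 3 (13.6%), miR-126 among them. The median size of the change was 0.26 on the log2 scale, and 5 of the 22, miR-126 included, reached that of miR-126. Among 41 pairs of adjacent microRNA genes within 10 kb of each other on 1 strand, the groups did not overlap in 14 (34.1%), miR-221 and miR-222 among them. The median size was 0.29, and 19 of the 41 pairs reached that of miR-221 and miR-222. The change within this pair was thus near the middle of these 41 pairs in size. Many of the pairs were successive genes of the large clusters around miR-379, where an assay could enter more than 1 pair. The place of miR-221 and miR-222 among the pairs therefore leans on that region.

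**Figure D5:**
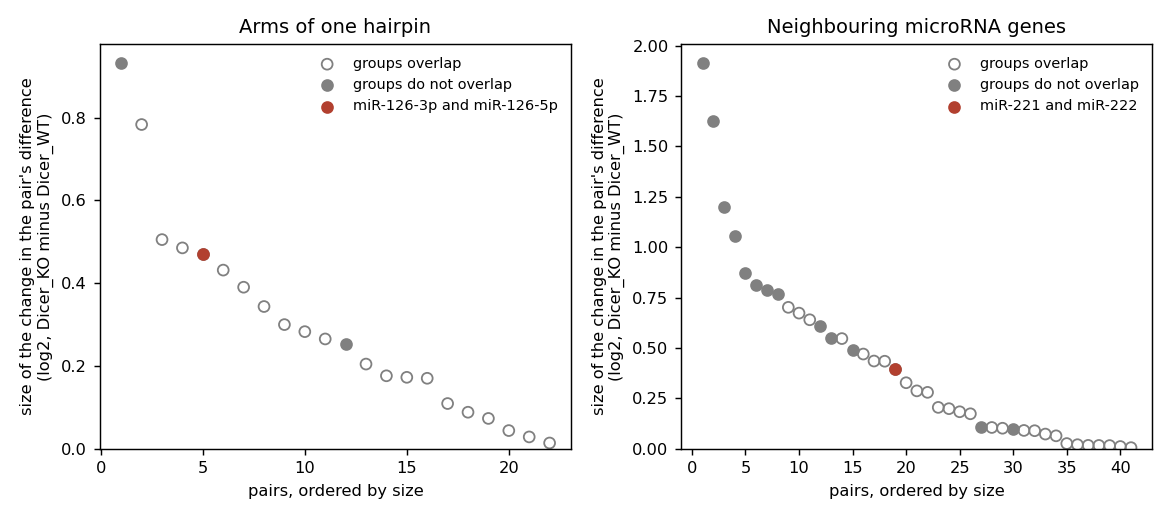
Size of the change in a pair's difference between Dicer_KO and Dicer_WT aortas (vertical axis, log2), for 22 pairs of arms of one hairpin and 41 pairs of adjacent microRNA genes, ordered by size. The miR-126 arms rank 5th of 22 and miR-221 with miR-222 19th of 41, and both have groups that do not overlap.

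The assays with the most similar profile over the 6 aortas were sought among the other 329 assays detected in every aorta, by the root-mean-square difference in log2 relative quantity after each assay was centred on its own mean. For miR-126-3p these were miR-139-5p (0.178), miR-466d-3p (0.188) and miR-92a (0.211). For miR-126-5p they were miR-764-5p (0.0615), miR-878-3p (0.118) and miR-503* (0.130), and miR-126-3p came 13th. miR-221 was most like miR-224 (0.103), miR-152 (0.105) and miR-185 (0.110), with miR-222 in place 60. miR-222 was most like miR-532-5p (0.0534), let-7a* (0.0701) and miR-379 (0.0810), with miR-221 in place 152. The arms of miR-126 differed from each other by 0.263 and miR-221 from miR-222 by 0.275. The partner was thus never among the 3 nearest assays. For miR-221 and miR-222 it came further down the order than for the arms of miR-126, although these distances were close in size. The place also depends on how many other assays lie near. With mean centring, 2 of the 3 nearest assays stayed for miR-126-3p and miR-221 and all 3 for miR-126-5p and miR-222. These distances cover 6 aortas, 3 of each genotype, so a difference between the genotypes enters them.

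Of 20 other microRNAs listed for endothelial cells or angiogenesis, 19 had an assay, 18 were tested, and 0 passed over all assays. Their median log2 fold change was -0.29, against -0.42 for all assays tested, and 15 of 18 lay below 0, against 78.2% of all assays. Their mean level per aorta overlapped between the groups, at -0.81 to -0.01 in Dicer_KO and -0.11 to 0.17 in Dicer_WT aortas (log2, Dicer_WT mean at 0). miR-92a, which restrains angiogenesis, was at 0.19 ± 0.22, miR-10a, which restrains endothelial inflammation, at -0.52 ± 0.26 and miR-132 at -0.41 ± 0.20 (SE, limma adjusted p = 0.543, 0.226 and 0.226). The lowest and highest values of the list each came with a well without product, miR-23a at -4.96 with 1 such Dicer_KO aorta and miR-217 at 2.83 with 1 such Dicer_WT aorta (limma adjusted p = 0.378 and 0.226). miR-100 had no product in any aorta.

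Of 8 smooth muscle microRNAs 0 passed, and all 8 lay below 0, as did 78.2% of all assays tested. Their median was -0.40, near that of all assays. Their mean level per aorta was -0.61 to -0.21 in Dicer_KO and -0.19 to 0.15 in Dicer_WT aortas (log2, Dicer_WT mean at 0). miR-143 and miR-145, the defining markers of contractile smooth muscle, were at -0.76 ± 0.26 and -0.42 ± 0.21 (SE, limma adjusted p = 0.137 and 0.231).

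Among markers of other cells, the mean level per aorta did not overlap between the groups for the myeloid and erythroid lists, as for the smooth muscle list. It overlapped for the hepatocyte and striated muscle lists. The median over assays also parted the groups downwards, at -0.62 to -0.21 in Dicer_KO and -0.17 to 0.099 in Dicer_WT aortas (log2, Dicer_WT mean at 0). All 8 myeloid microRNAs lay below 0, as did 78.2% of all assays tested, and 0 of them passed. Their mean level per aorta was -1.55 to -0.95 in Dicer_KO and -0.46 to 0.29 in Dicer_WT aortas. The median log2 fold change of the 8 was -1.13. For 6 of the 8 every Dicer_KO aorta lay below every Dicer_WT aorta, against 32.6% of all assays tested. The lowest, miR-147 at -3.67, had no product in any Dicer_KO aorta, so its size depends on the value set for undetected wells. miR-511 at -1.99, miR-223 at -1.66, miR-342-3p at -1.33, miR-146a at -0.93 and miR-155 at -0.80 were detected in all 6 aortas. miR-142-3p at -0.07 and miR-142-5p at -0.09 lay above the median of all assays, -0.42. Both erythroid assays, miR-451 and miR-486, lay above 0, 0 of them passed, and they had a mean of 0.998 to 1.65 in Dicer_KO and -0.998 to 0.847 in Dicer_WT aortas. None of the hepatocyte or striated muscle assays passed. miR-133a, at -0.32, was in both the striated muscle and the smooth muscle list. The 3 hepatocyte microRNAs averaged 0.47 to 1.23 in Dicer_KO and -0.80 to 0.73 in Dicer_WT aortas, and the 5 striated muscle assays tested -0.47 to 0.65 in Dicer_KO and -0.68 to 0.49 in Dicer_WT aortas. The part of these cells in the values of miR-126, miR-221 and miR-222 was not tested.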

How the data were processed

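Per the labels, total RNA from whole aortas was isolated with a mirVana kit, reverse-transcribed, preamplified and read with FAM-labelled TaqMan probes. The Ct table deposited by the authors holds 517 microRNA assays on 2 cards (335 and 182), with 40 for wells without product and 5 cells with a decimal comma, read as a point. The relative quantities deposited by the authors are a linear ratio. From the values, log2 of this ratio is the mean Ct of U6, snoRNA135 and snoRNA202 (with snoRNA429 on the second card) minus the assay's Ct, relative to the Dicer_WT mean. The authors' deposited fold table holds a linear ratio too. Which software set the threshold, which array version was used and any batches were not given in the sources used here.

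Undetected wells (Ct 35 or more) were set to Ct 35, and an assay was kept when 2 or more of the 3 aortas of either group lay below Ct 35, which left 377. The test was limma's (version 3.58.1, R 4.3.3, lmFit and eBayes), two-sided, with p-values adjusted by Benjamini-Hochberg across the kept assays and a threshold of 0.05. The 3 differences within aortas used exact permutation tests, and the mean levels of lists and the Ct ranks were not tested. The fit was tested on simulated data. Members, lists and rules were chosen with earlier results of these data known, and the background sets of arm pairs and adjacent genes were added after the files had been read. Named assays were the 4 microRNAs, the 3 most similar assays of each, those sharing a seed, list members as examples and control RNAs.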

Additional observations from a re-analysis of the deposited data

How the results depend on the processing

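The log2 fold changes of the 4 microRNAs and the differences within aortas were recomputed with 6 other scales and with other detection cutoffs, filters, fits and aortas left out. miR-126-5p stayed above 0 and uncalled in 20 of 20 alternatives, miR-222 below 0 and uncalled in 20 of 20, and miR-221 below 0 in 20 of 20, called in 1. The differences within aortas were identical by construction in 10 of 17 alternatives, since the 4 assays share a card and all wells were detected, and each kept its sign in the other 7, quantile normalization and the 6 with 1 aorta left out. miR-126-3p, at -0.01, turned to 0.36 with mean centring, 0.51 relative to U87 and Y1, 0.077 relative to the snoRNAs without U6 and 0.56 after quantile normalization. With 1 aorta left out it ranged from -0.23 to 0.24, and it was above 0 without Dicer_KO replicate 1 (0.24), Dicer_WT replicate 2 (0.03) or Dicer_WT replicate 3 (0.04). miR-221 ranged from -1.20 without normalization to -0.47 relative to U87 and Y1 over all alternatives, and from -1.18, its one called value, to -0.84 with 1 aorta left out. The cause was not tested.

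The counts over all assays, 7 lower and 0 higher, depended more on the setting. They were 24 lower and 2 higher at a Ct cutoff of 32, 20 and 2 over assays detected in all 6 aortas, 28 and 2 with trended robust variances, and 13 and 0 with Ct 40 taken as measured. Higher calls were 1 with mean centring, 2 relative to U87 and Y1, 2 relative to the snoRNAs without U6 and 1 after quantile normalization. With 1 aorta left out, 5 to 55 assays were called lower and 0 to 9 higher, the highest counts both without Dicer_KO replicate 1. 11 were called lower without Dicer_KO replicate 2, and 1 higher without Dicer_WT replicate 2.

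The groups share replicate numbers in the labels. Aortas of the same number deviated together at correlations of 0.18, -0.10 and 0.15 over 330 assays, and not every aorta was closest to its own number, so the numbers were not taken as pairs. With the replicate block, 7 assays were called lower and 0 higher, and none of the 4 microRNAs passed (adjusted p = 0.0727 for miR-221, 0.0878 for miR-222, 0.117 for miR-126-5p and 0.983 for miR-126-3p). The differences within aortas had exact sign-flip p = 0.25 under the block, the smallest possible with 3 pairs. With 3 aortas a group, the exact tests could not reach the threshold.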

Other observations

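Among the 22 hairpins read on both arms, the largest change in the distance between arms was that of miR-339, at -0.93 on the log2 scale (3p minus 5p, Dicer_KO minus Dicer_WT), with groups that did not overlap. This hairpin was named after its values had been seen.

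In the authors' deposited table, the fold change of 2 of 517 assays differed from the ratio of arithmetic means of the relative quantities by over 0.01 on the log2 scale. It was 0.349 for let-7b, where the relative quantities give 0.668, and 0.133 for miR-195, where they give 0.796. Neither is among the 4 microRNAs described here. miR-195 is in the smooth muscle list, whose values were computed from Ct and not from these fold changes.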
